A study of Mus musculus with 19 samples.

Results

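The 38 genes described here are type I interferon-stimulated genes, given as a named list of gene symbols and read from the table of 48795 gene rows of the series. All 38 were found, and all 38 lay above the low-value filter, a mean log2 value above 0 over the tumors, which 12826 genes passed. They were measured by bulk RNA sequencing in 19 primary p53/MCA sarcomas, mouse soft tissue tumors. Each tumor had been induced in the hindlimb muscle by adenoviral delivery of Cas9 with a guide that cuts Trp53, together with 300 µg of the carcinogen MCA (3-methylcholanthrene), in mice aged 6 to 10 weeks. The hosts were Rag2-/- mice (n = 11 tumors), which lack the recombinase needed for T and B cells and still have NK and myeloid cells, or Rag2+/- mice (n = 8 tumors), which carry a working copy and make lymphocytes. Both groups share the Trp53 guide and MCA, no tumor had been treated, and each was collected at 70 to 150 mm3. Each library is 1 tumor, so p-values below set the difference between genotypes against the spread between tumors.

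Type I interferons are secreted when a cell senses nucleic acid out of place. They bind the receptor made of Ifnar1 and Ifnar2, whose kinases activate transcription factors such as Stat2. With Irf9 this is part of a complex that enters the nucleus, binds the interferon-stimulated response element in front of target genes and switches them on. The products sense RNA and DNA, block translation, cut RNA, hold back viral particles and restrain the signal. In tumors the same program can run in cancer cells, macrophages, dendritic cells and lymphocytes alike, and a bulk sample mixes them.

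The values are log2 of normalized FPKM after 0.1 had been added, so -3.32 is the floor, where no read was assigned. Depth was estimated from the steps between low values at 24.9 to 33.8 M fragments on genes in 18 tumors and 5.25 M in S41, a Rag2-/- tumor. The Rag2+/- tumors S56 and S60 had the fewest genes above the floor, 15585 and 16314, against up to 19481 elsewhere. Labels were checked on lymphocyte genes: Cd3e lay at the floor in 11 of 11 tumors labelled Rag2-/- and between -0.61 and 2.90 in the others, and Igkc reached at most -0.80 in the first and at least 3.88 in the second. Rag2 RNA itself was higher in tumors labelled Rag2-/-, at -0.34 ± 0.74 (SD, n = 11) against -1.31 ± 0.70 (SD, n = 8; two-sided exact permutation p = 0.0123). The sources do not say which bases the Rag2 allele lacks, and another gene, B230118H07Rik, overlaps Rag2 on the other strand, so this value does not check the allele. Below, Rag2-/- and Rag2+/- stand for tumors so labelled. Mesenchymal markers, the check on the labelled tissue, were present, and all 9 passed the filter.

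Promoter sequence was available from RefSeq (GRCm38.p6) for 27 of the 38 genes, as 250 bases before and 50 after each start site. The core of the interferon-stimulated response element was searched as GAAA, then any pair of bases (NN), then GAAA, or the same on the other strand as TTTC, NN, TTTC. It occurred in 12 of 27 members (44.4%), against 3.99% of all 27025 genes with such a window. With only the bases before the start, it occurred in 40.7% of members and 3.46% of genes. A core shorter by its last base, GAAA, NN, GAA or its complement, occurred in 51.9% of members and 9.76% of genes. These 12 genes were Ddx60, Ifih1, Stat2, Ifit1, Ifit3, Ifit3b, Oas1a, Oas3, Rsad2, Bst2, Isg15 and Trim30a, and in Ifih1 the match lay after the start. Dhx58, Zbp1, Oas1b, Oas2, Mx1, Mx2, Usp18, Parp9, Parp14, Rtp4 and Ifi27l2a had no window.

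The bases directly before the start site are shown 5′ to 3′ on the strand of the gene, with every match in capitals, for 7 members that hold the element in different arrangements. Oasl2, on chr5:114896814-114896933 (plus strand), with the fifth lowest p-value of the members and no match, is shown for contrast. Ddx60 (chr8:61927967-61928086, plus strand) holds separate matches that begin 53 and 19 bases before the start. In Isg15 (chr4:156200819-156200938, minus strand) 3 matches overlap in 1 stretch that begins 78 bases before it. Rsad2 (chr12:26456453-26456572, minus strand) has 1 match, on the other strand. Oas1a (chr5:120907526-120907645, minus strand) has an overlapping pair that ends 5 bases before the start.
Ddx60: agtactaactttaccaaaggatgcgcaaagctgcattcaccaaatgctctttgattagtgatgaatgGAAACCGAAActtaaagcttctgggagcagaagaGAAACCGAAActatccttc
Isg15: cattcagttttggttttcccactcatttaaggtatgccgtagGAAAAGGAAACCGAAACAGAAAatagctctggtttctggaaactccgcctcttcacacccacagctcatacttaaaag
Rsad2: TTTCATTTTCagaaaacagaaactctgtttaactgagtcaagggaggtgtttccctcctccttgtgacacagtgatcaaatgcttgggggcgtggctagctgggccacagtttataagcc
Oas1a: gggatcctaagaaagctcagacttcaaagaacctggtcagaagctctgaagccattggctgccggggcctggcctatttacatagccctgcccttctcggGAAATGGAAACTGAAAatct
Oasl2: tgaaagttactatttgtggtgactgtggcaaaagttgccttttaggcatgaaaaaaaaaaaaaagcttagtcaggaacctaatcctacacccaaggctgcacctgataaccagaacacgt

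The Ifit genes lie side by side on chromosome 19 and are shown together because Ifit3 and Ifit3b share most of this sequence. Ifit1 (chr19:34640769-34640888), Ifit3 (chr19:34583329-34583528) and Ifit3b (chr19:34607757-34607956) are on the plus strand, and each holds a pair of separate matches on the other strand. The longest run that Ifit3 and Ifit3b share without a difference is 169 bases and includes both matches. A match is a description of the letters, and binding was not measured.
Ifit1: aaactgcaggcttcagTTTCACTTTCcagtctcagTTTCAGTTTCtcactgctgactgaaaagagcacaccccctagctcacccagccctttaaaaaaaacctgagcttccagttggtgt
Ifit3: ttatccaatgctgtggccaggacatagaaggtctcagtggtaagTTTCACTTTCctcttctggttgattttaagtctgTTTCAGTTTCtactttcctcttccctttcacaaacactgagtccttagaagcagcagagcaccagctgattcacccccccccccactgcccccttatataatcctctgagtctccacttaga
Ifit3b: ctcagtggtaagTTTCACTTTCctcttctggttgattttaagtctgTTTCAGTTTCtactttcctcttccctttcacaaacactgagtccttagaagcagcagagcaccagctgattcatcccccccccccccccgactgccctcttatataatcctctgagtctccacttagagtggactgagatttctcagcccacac

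The comparison of the genotypes asks whether this program differs in tumors that grew with or without T and B cells. All 38 genes had a higher mean in Rag2-/- tumors, with differences from 0.45 (Ifi35) to 1.80 (Oas1b) on the log2 scale and a median of 0.85. Over all 12826 genes tested the median difference was 0.06, and 56.2% were higher in Rag2-/- tumors. In limma, 37 of the 38 were higher with an unadjusted p under 0.05, and the exception was Zbp1. Over all genes, 6.74% were higher and 9.56% lower at that threshold, and 0 members were lower. After Benjamini-Hochberg adjustment over all genes, 0 of the 38 had an adjusted p under 0.05 (limma adjusted p 0.276 to 0.335), against 0.0312% of all genes. For 0 of the 38 did the tumors of one genotype all lie above those of the other, which held for 0.0156% of all genes. In these bulk samples, more cells of a type and more RNA per cell cannot be told apart.

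**Figure D1:**
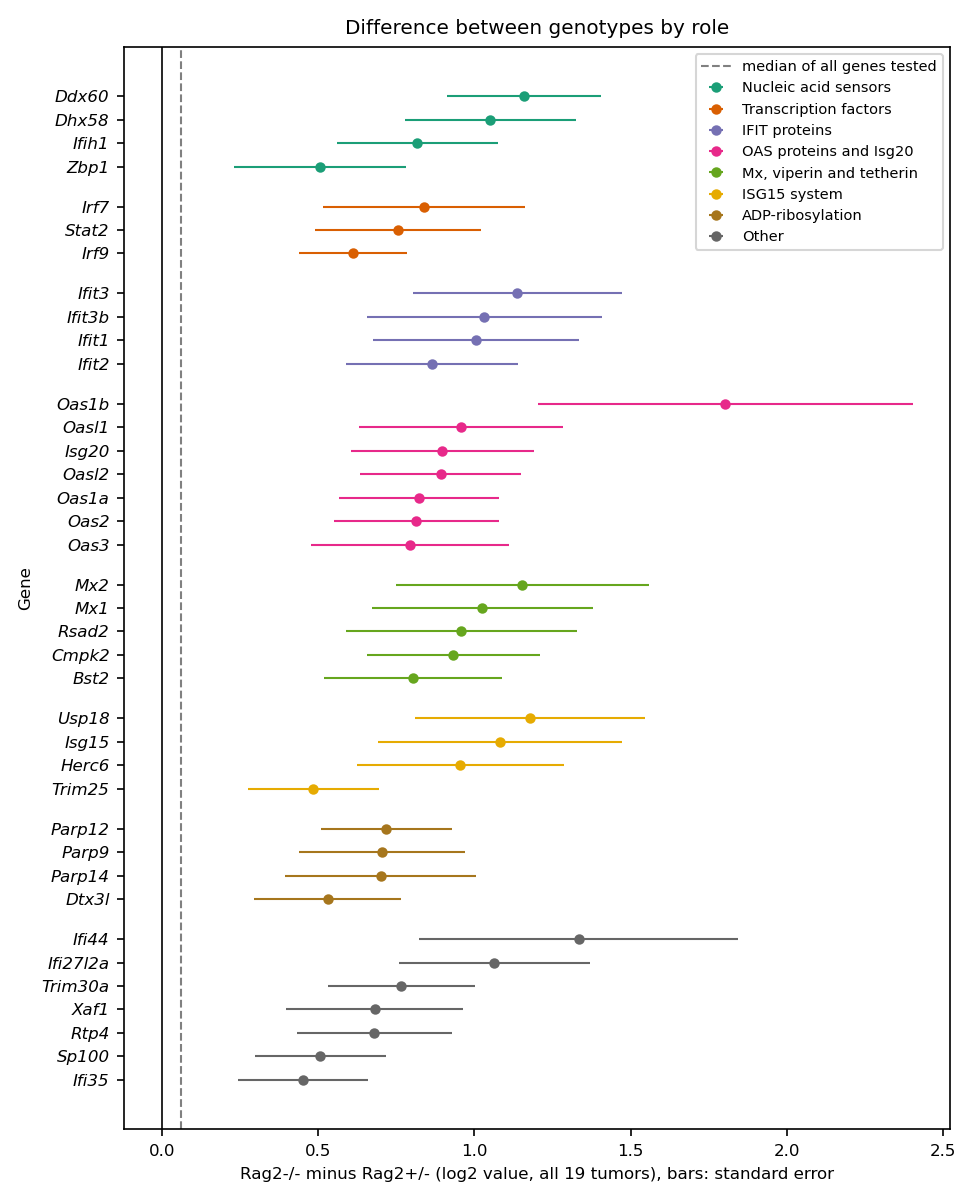
Difference in mean log2 value between Rag2-/- (n = 11) and Rag2+/- (n = 8) tumors for each of the 38 genes, colored by role, with bars of 1 standard error from limma and a dashed line at the median of all genes tested (0.06). Every point lies right of that line, from 0.45 for Ifi35 to 1.80 for Oas1b.

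The nucleic acid sensors Ddx60 and Dhx58 headed the members by p-value, while the sensor Zbp1 came last. Ddx60, a helicase that assists RNA sensing, had the lowest p-value. It ranged from 1.87 over a median of 2.84 to 3.52 in Rag2-/- tumors and from 0.70 over 1.58 to 2.41 in Rag2+/- tumors. All 11 Rag2-/- tumors lay above the Rag2+/- median and 8 of them above the highest Rag2+/- tumor. The difference was 1.16 (SE 0.25, limma p = 1.5e-04), a 2.23-fold higher level after the added 0.1.

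Dhx58, which encodes LGP2, a regulator of RNA sensors, lay at 4.10, 4.70 and 5.29 (lowest, median and highest) in Rag2-/- tumors and at 2.08, 3.58 and 4.69 in Rag2+/- tumors. The genotypes met only at the upper end of the Rag2+/- values, and S56 lay far below the rest. The difference was 1.05 (SE 0.27, limma p = 0.0010). Ifih1, the sensor MDA5 of long double-stranded RNA, ran from 3.75 over 4.26 to 5.02 against 2.59 over 3.32 to 4.73, a difference of 0.82 (SE 0.26, limma p = 0.0049). Zbp1, a sensor of nucleic acid in the Z form that can trigger necroptosis, overlapped widely, at 5.36, 6.28 and 7.5 against 4.93, 5.54 and 6.67. Its difference of 0.51 (SE 0.28) had the highest p-value of the 38 genes (limma p = 0.080).

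Of the 3 transcription factors, Irf9, the DNA-binding part of this complex with Stat2, had the lowest SD of the 38 genes in Rag2-/- tumors, 0.25. It lay between 4.51 and 5.20 in Rag2-/- tumors, with a median of 4.90, and between 3.36 and 4.88 in Rag2+/- tumors, with a median of 4.33. All 8 Rag2+/- tumors were below the Rag2-/- median. The difference was 0.61 (SE 0.17, limma p = 0.0021). Its partner Stat2 was 0.76 higher (SE 0.27), and Irf7, which drives transcription of interferon genes, was 0.84 higher (SE 0.32).

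The 4 Ifit genes, whose products bind foreign RNA and block its translation, were 0.87 to 1.14 higher. Ifit3 lay at 6.17, 7.25 and 8.71 in Rag2-/- tumors and at 5.17, 5.74 and 7.44 in Rag2+/- tumors, with S51 at the top of all 19. The difference was 1.14 (SE 0.33, limma p = 0.0029). Ifit3 and Ifit3b are near-identical neighbours, so reads could be split between them, and their separate values are uncertain. The same caution holds for the Oas1 genes, Oasl1 with Oasl2, Mx1 with Mx2, and the Trim30 and Ifi27 families.

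The 6 Oas and Oasl genes and Isg20 were 0.79 to 1.80 higher. Active Oas enzymes, such as that of Oas1a, make the oligoadenylates that activate RNase L, which does not hold for every gene of this group. Isg20 is an RNA exonuclease. Oasl2, which has no match in the promoter sequence shown, lay at 5.51, 6.16 and 6.58 against 4.29, 5.23 and 6.54, so that 1 Rag2+/- tumor (S55) reached the top of the Rag2-/- range. The difference was 0.89 (SE 0.26, limma p = 0.0025). Oas1a lay at 4.99, 5.77 and 6.33 against 3.74, 4.90 and 5.82, a difference of 0.82 (SE 0.26, limma p = 0.0045).

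Oas1b had the largest difference, 1.80 (SE 0.60), and the largest SD in Rag2+/- tumors, 1.87. It lay at 0.35, 2.04 and 3.52 in Rag2-/- tumors and at -3.32, 0.47 and 2.43 in Rag2+/- tumors, where it was listed at the floor in S56. Because of that floor its difference depended on the constant added before the log, being 1.06 with 1 and 2.29 with 0.01. Without S56 it was 1.30.

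The Mx, viperin and tetherin group was 0.80 to 1.15 higher. Mx1 and Mx2 encode dynamin-like GTPases that trap viral parts, Rsad2 encodes viperin, Cmpk2 is its genomic neighbour and supplies nucleotide, and Bst2 encodes tetherin. Cmpk2 lay at 3.10, 4.08 and 5.51 against 2.39, 2.98 and 4.22, a difference of 0.93 (SE 0.28, limma p = 0.0032). Mx2 was 1.15 higher (SE 0.40), and 7 Rag2-/- tumors lay above the highest Rag2+/- tumor, but it also had the largest SD in Rag2-/- tumors, 1.004. Its lowest Rag2-/- value, 1.40 in S46, was below the Rag2+/- median of 2.33.

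In the ISG15 system, Isg15, a ubiquitin-like protein joined to other proteins, lay at 6.11, 8.02 and 8.97 against 5.41, 6.38 and 8.07, a difference of 1.08 (SE 0.39). Its values split inside the Rag2-/- tumors, with 6 at or above 8.02 and the other 5 at or below 7.19. Usp18, which removes Isg15 and dampens the receptor, lay at 3.95, 5.71 and 6.21 against 3.19, 4.24 and 5.89, a difference of 1.18 (SE 0.37, limma p = 0.0045). Herc6, a ligase for Isg15 in mice, was 0.96 higher (SE 0.33), and Trim25, a ligase that acts on RNA sensing, was 0.49 higher (SE 0.21).

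The 4 genes of ADP-ribosylation were 0.53 to 0.72 higher. Parp12, an ADP-ribosyltransferase, lay at 4.68, 5.15 and 5.82 against 3.80, 4.36 and 5.40, a difference of 0.72 (SE 0.21, limma p = 0.0028). Parp14, of the same family, was 3.26, 4.25 and 6.14 against 2.69, 3.61 and 4.504, a difference of 0.70 (SE 0.31, limma p = 0.0335). Dtx3l, a ubiquitin ligase, was 3.16, 3.93 and 5.30 against 2.84, 3.26 and 4.35, a difference of 0.53 (SE 0.23, limma p = 0.0351). In Parp14 and Dtx3l a single tumor, S51, stood above all others. Dtx3l and its partner Parp9 overlap on opposite strands, and the use of strand in the counting is not given in the sources used here, so reads from the overlap cannot be told apart.

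Of the 7 remaining genes, Ifi27l2a, a mitochondrial protein, lay at 7.45, 8.51 and 9.89 in Rag2-/- tumors and at 6.54, 7.63 and 8.45 in Rag2+/- tumors. All Rag2+/- values were below the Rag2-/- median, and the difference was 1.06 (SE 0.31, limma p = 0.0024). Trim30a, a member of the tripartite motif family, was 4.11, 4.99 and 5.52 against 2.95, 4.15 and 5.16, a difference of 0.77 (SE 0.24, limma p = 0.0040). Ifi35 had the smallest difference, 0.45 (SE 0.21, limma p = 0.0428), from 4.65, 5.50 and 6.56 against 4.62, 4.89 and 5.47. Ifi44 was 1.33 higher (SE 0.51), Rtp4 and Xaf1 were each 0.68 higher (SE 0.25 and 0.28), and Sp100, a nuclear body protein, was 0.51 higher (SE 0.21).

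**Figure D2:**
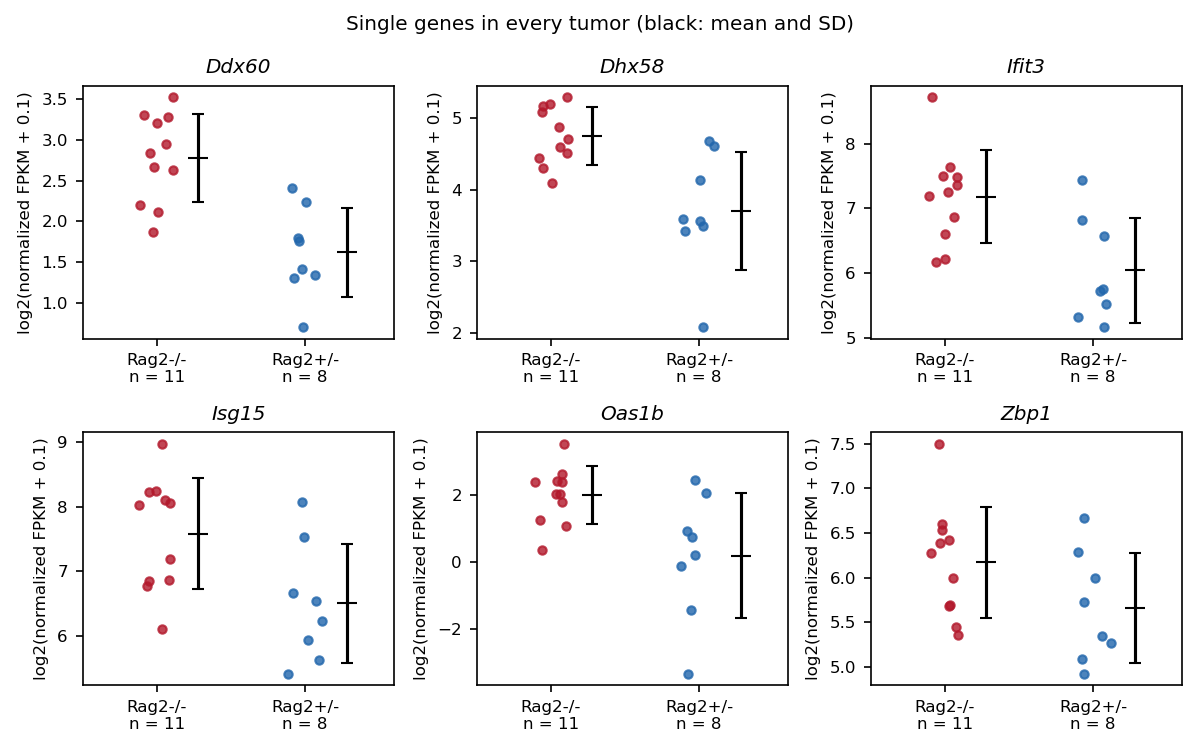
Log2 values of 6 members in every tumor of each genotype (points, n = 11 and n = 8), with the mean and SD in black beside them. The genotypes overlap little for Ddx60 and Dhx58 and widely for Zbp1, and in Oas1b 1 Rag2+/- tumor lies at the floor of -3.32.

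Members with the response element in their window had a median difference of 0.89 (12 genes), and those with a window but no match had 0.84 (15 genes). The ranges of these groups overlapped, and genes that lie in 1 cluster are not independent of each other.

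Inside each genotype the tumors varied widely. The median SD over the members was 0.57 in Rag2-/- tumors and 0.74 in Rag2+/- tumors, against 0.44 and 0.56 over all genes tested. For 33 of the 38 members (86.8%) the SD was larger in Rag2+/- tumors, which also held for 70.2% of all genes. The exceptions were Ifi35, Mx1, Mx2, Parp14 and Zbp1. Genotype accounted for a median of 30.8% of a member's variance over the 19 tumors, from 15.5% (Zbp1) to 55.3% (Ddx60), against 8.25% over all genes. The larger part of the variance of most members therefore lay between tumors of the same genotype.

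**Figure D3:**
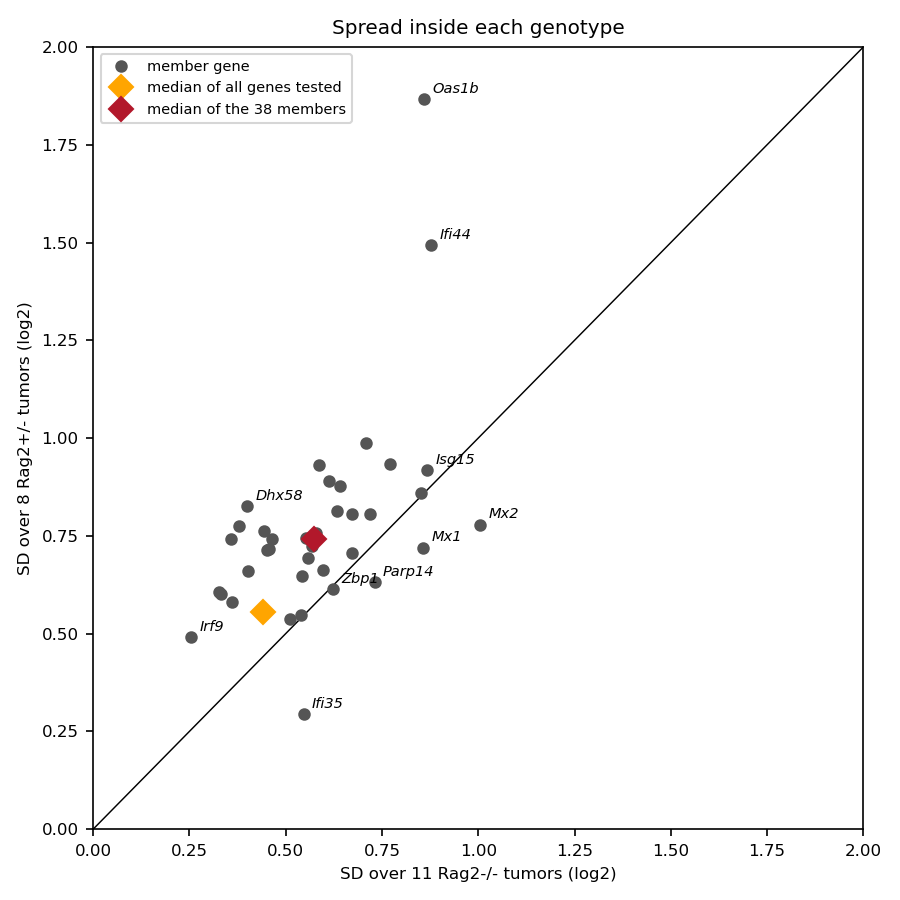
SD of each member over the 11 Rag2-/- tumors (horizontal axis, log2) and the 8 Rag2+/- tumors (vertical axis, log2), with the line of equal SD and diamonds for the medians of the members (0.57 and 0.74) and of all genes tested (0.44 and 0.56). For 33 of the 38 members the point lies above the line, and Oas1b and Ifi44 lie farthest up.

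The members ordered the tumors alike. Kendall's W, which is 1 when all genes rank the tumors in the same order, was 0.74 over the Rag2-/- and 0.83 over the Rag2+/- tumors. It was 0.0037 and 0.0048 over all genes tested. A value near 0 comes with many genes that rank the tumors in opposing orders, so it is no benchmark for the members. These values describe genes measured in the same libraries, which share depth and cell content. Averaged over the 38 genes, the log2 value came to 5.10 ± 0.50 (SD, n = 11) in Rag2-/- hosts and 4.22 ± 0.72 (SD, n = 8) in Rag2+/- hosts.

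At the high end of the Rag2-/- tumors stood S51, with a mean of 5.97 and the highest value of all 19 tumors for 26 of the 38 genes. S44 had the highest value for 8 more. At the low end, S48, with a mean of 4.29, was the lowest Rag2-/- tumor for 22 genes and S46 for the other 16. S46 did not follow a single order. It was lowest of its genotype for Isg15 (6.11), Usp18 (3.95), Mx2 (1.40) and Ifi44 (2.78), yet highest of its genotype for Ifi27l2a (9.89), Trim25 (5.40) and Sp100 (6.24).

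The Rag2+/- tumors fell apart into a high pair and a lower set. S55 and S58, with means of 5.25 and 5.15, lay above the Rag2+/- median for 38 of 38 genes, and 1 of them was the highest Rag2+/- tumor for each gene. S55 exceeded the Rag2-/- median for 27 genes and S58 for 22. None of the other 6 Rag2+/- tumors exceeded it for any member (0 of 38 genes in each). S56 was lowest, with a mean of 3.18 and the lowest value of all 19 tumors for 28 genes. S60 was lowest for 6 further genes.

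**Figure D4:**
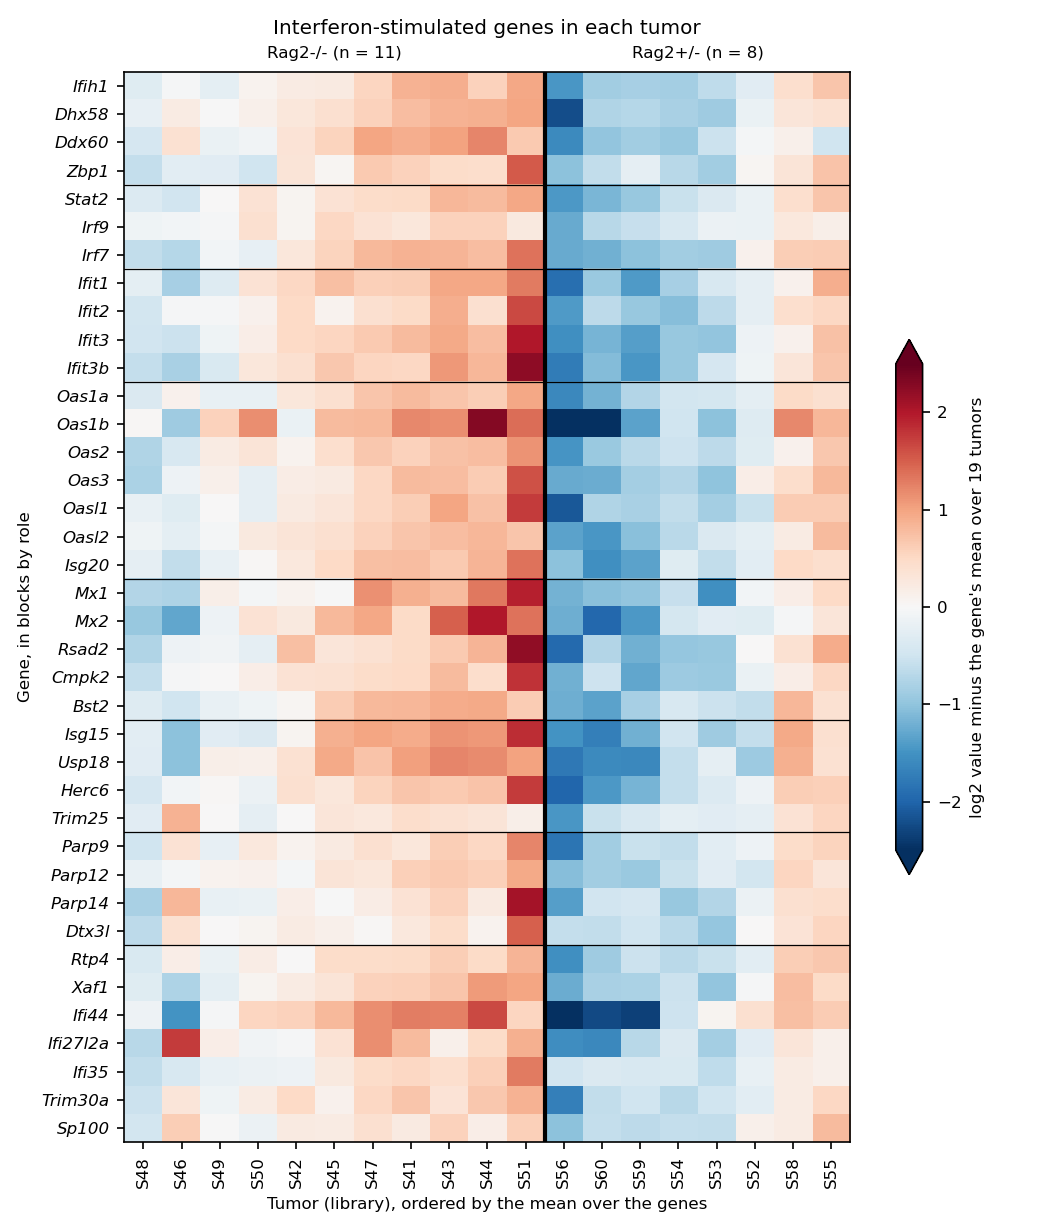
Log2 value minus the gene's mean over 19 tumors (color, with a color scale that ends at 2.5 in either direction) for the 38 members, in blocks by role, across 11 Rag2-/- and 8 Rag2+/- tumors ordered by their mean over the members. S51 is the highest tumor for 26 genes and S56 the lowest for 28, while S46 is low for Isg15, Mx2 and Ifi44 and high for Ifi27l2a.

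Other cells differed between these tumors as well. Of 9 NK cell markers, 7 passed the filter and 4 of these (Ncr1, Gzma, Prf1 and Klrb1c) were higher in Rag2-/- tumors at an unadjusted p under 0.05, against 6.74% of all genes. None passed after adjustment (limma adjusted p from 0.297). No NK marker lay at the floor in all tumors of either genotype. Their summed level was 18.97 to 117 normalized FPKM (median 54.5) in Rag2-/- tumors and 6.47 to 60.04 (median 31.7) in Rag2+/- tumors. Ncr1, an activating NK cell receptor, was 1.33 higher (SE 0.30), and Gzma, a granzyme, 1.96 higher (SE 0.48).

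The paper reports Gzma and Gzmb in CD8+ T cells as well, and only Rag2+/- hosts make T cells. In Rag2+/- tumors the NK marker sum and list can therefore hold T cell RNA too, and they are not a measure of NK cells alone. The NK marker sum and the interferon-stimulated genes shared their extremes. S51 had the highest sum of all 19 tumors and S56 the lowest. Among the low Rag2-/- tumors S48 had 19.8 and S46 26.1, and of the high Rag2+/- pair S55 had 60.04 and S58 42.5. Between the extremes the orders differed. S59 had 45.4 beside a member mean of 3.79, S50 had the lowest sum of the Rag2-/- tumors (18.97) beside 4.80, and S52, with 50.4 and 4.54, exceeded S58 in the sum alone. With the mean of the NK list as a covariate, the median member difference was 0.23, and 2 of the 38 members, Ddx60 (0.62, limma p = 0.0047) and Dhx58 (0.37, limma p = 0.0313), kept an unadjusted p under 0.05, against 1.97% of all genes. Under this covariate Zbp1 was the only member with a lower mean in Rag2-/- tumors, at -0.12. The NK list differs with genotype itself, so the 2 cannot be told apart in this design.

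**Figure D5:**
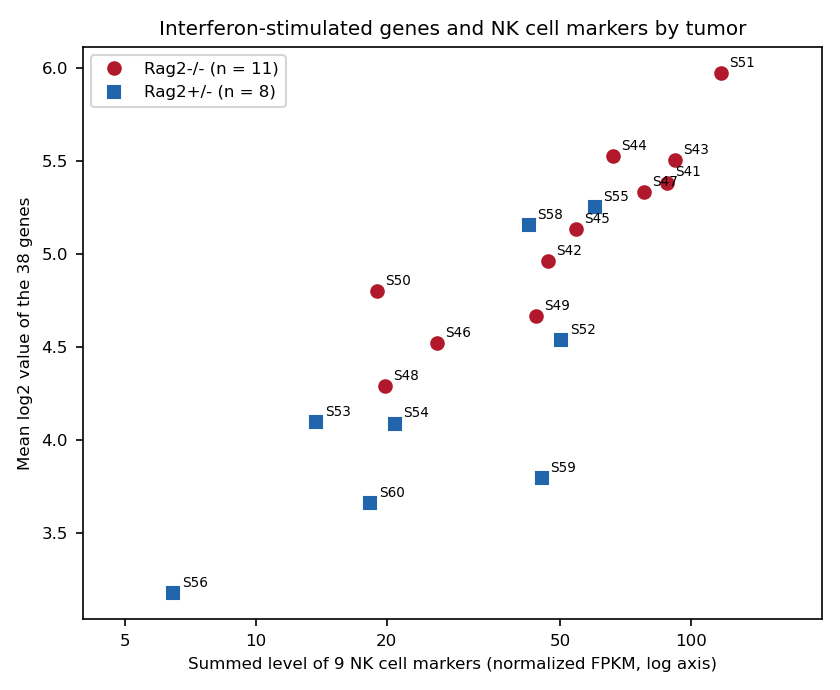
Mean log2 value of the 38 members (vertical axis) against the summed level of 9 NK cell markers (normalized FPKM, log axis) in each tumor, Rag2-/- as circles (n = 11) and Rag2+/- as squares (n = 8). S51, with a sum of 117, has the highest mean (5.97) and S56, with 6.47, the lowest (3.18), while S59 lies low for its sum of 45.4.

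Skeletal muscle RNA moved the other way. Of 10 muscle markers, 8 were lower in Rag2-/- tumors at an unadjusted p under 0.05, against 9.56% of all genes, and their summed level was 307 to 99605 (median 4885) against 1702 to 152890 (median 40389). The Rag2+/- tumors with the lowest member means, S56, S60 and S59, held sums of 152890, 114049 and 98909. S51, however, had 99605 and the highest member mean. With the muscle list as a covariate, 32 of the 38 members had an unadjusted p under 0.05, against 2.59% of all genes, and the median difference was 0.84.

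Of the 8 macrophage markers, 1 (Fcgr1, itself responsive to interferon) was higher at an unadjusted p under 0.05, against 6.74% of all genes. Their summed level was 1161 to 3454 (median 1573) against 581 to 1807 (median 1307). S46 had the highest sum and S56 the lowest. With this list as a covariate, 28 members had an unadjusted p under 0.05, against 3.38% of all genes. Of the T cell markers, Cd3e was at the floor in all Rag2-/- tumors. Sums for T cells were 0.78 to 4.501 against 8.51 to 50.4, and the highest, 50.4 and 46.98, were those of S55 and S58, the Rag2+/- tumors with the highest member values. B and plasma cell markers summed to 0.96 to 5.02 against 18.2 to 494. Conventional dendritic cell markers summed to 1.64 to 8.23 against 1.48 to 7.56, and neutrophil markers to 33.4 to 391 against 12.9 to 99.97. Only 2 of 4 and 5 of 6 of these genes passed the filter, and 0 of those tested passed the threshold. The plasmacytoid dendritic cell sum (6.22 to 609 against 19.9 to 1596) was set by Cox6a2, which muscle also expresses. In that list the surface receptor Siglech lay at a median of -0.43 against -0.01. Endothelial markers (48.4 to 183 against 63.1 to 126) held 1 lower gene of 4, against 9.56% of all genes. Mesenchymal markers (1343 to 5703 against 1555 to 7420) held 1 higher gene of 9, against 6.74% of all genes. A count of 1 in lists this short says little about them. Apart from the covariates named, the part of these cells in the member differences was not tested.

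The count of members depended on which tumors entered. In the 15 tumors that the study listed with its figure data, 25 of the 38 had an unadjusted p under 0.05 (median difference 0.62), against 11% of all genes. Without S41, the tumor of low depth, 36 did, against 5.27% of all genes. Without S41, S56 and S60 together, 10 did (Ddx60, Dhx58, Irf9, Ifi27l2a, Oasl2, Parp12, Ifit3, Ifit2, Cmpk2 and Trim30a), against 1.68% of all genes, and the median difference was 0.55. With the number of genes above the floor as a covariate, 30 did, against 3.2% of all genes. In each of these fits all 38 members remained higher in mean in Rag2-/- tumors.

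The rest of the pathway was read from 59 further genes. Of these 38 passed the filter and were tested, with 0 at an adjusted p under 0.05 in limma, and 21, including all interferon genes, were too low to test. The ligands were near absent. Of 17 type I interferon genes, 13 lay at the floor in all 19 tumors, and Ifna2, Ifna4 and Ifnab were above it in at most 4 tumors each. Ifnb1 was above the floor in 6 of 11 Rag2-/- and 2 of 8 Rag2+/- tumors and reached -0.10 in S47, a Rag2-/- tumor. The type II interferon gene Ifng was above it in 8 of 11 and 6 of 8 tumors, and its highest value, 2.43, was in S51. At this depth a low level of a ligand could go undetected.

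The receptor subunits Ifnar1 and Ifnar2 were 0.32 (SE 0.17, limma p = 0.0672) and 0.38 (SE 0.19, limma p = 0.0634) higher in Rag2-/- tumors. Ifnar1 lay at 4.27, 4.88 and 5.38 in Rag2-/- tumors and at 3.78, 4.66 and 4.98 in Rag2+/- tumors. Ifngr2, a subunit of the receptor for interferon gamma, differed by -0.31, lower in Rag2-/- tumors (SE 0.11, limma p = 0.0134). None of the 8 kinases and transcription factors that are not members passed an unadjusted p under 0.05.

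Of the 11 sensors and adaptors, 7 were higher at an unadjusted p under 0.05, against 6.74% of all genes, the share to set beside the counts that follow as well. Tlr3, an endosomal sensor of double-stranded RNA, had the lowest p-value in the pathway lists. It lay at 2.63, 3.13 and 3.96 in Rag2-/- tumors and at 1.52, 2.19 and 3.25 in Rag2+/- tumors, a difference of 0.91 (SE 0.22, limma p = 6.5e-04). Ddx58, which encodes the sensor RIG-I, was 0.85 higher, Tlr9, a sensor of DNA, 0.68 higher, and the adaptor Myd88 0.52 higher. Of 9 other interferon-responsive genes 5 were higher, including the kinase Eif2ak2 and Samd9l, both by 0.81. Of 5 genes that restrain the pathway 1 was higher, Adar, which edits double-stranded RNA, by 0.65 (SE 0.20).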

How the data were processed

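Per the study's methods, RNA was sequenced as paired 150-base reads. For neoantigen expression the methods give alignment to mouse B38 with the Omicsoft aligner, allowing at most 2 mismatches, and gene counts with Ensembl R86 models. They give the level of neoantigen genes as log2 upper-quartile normalized FPKM, which is also the measure of the deposited values. The lowest value of every tumor, log2 of 0.1, shows that 0.1 had been added. For differential expression the methods name Trimmomatic, STAR and HTSeq. The submitters' processing notes name the same tools, as Trimmomatic 0.36, STAR 5.5.4b and HTSeq. Which route made the deposited table was not settled. Samples that failed quality control had been removed by the study. These are normalized values rather than counts, and 0 columns were left unmatched.

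The 38 members and the lists were chosen with earlier results of these data known. All 19 tumors entered 1 unpaired fit without covariates, made by limma 3.58.1 (R 4.3.3) with an intensity trend over genes whose mean log2 value exceeded 0, and p-values were adjusted by Benjamini-Hochberg at 0.05. The fit had been tested on these values after centering by genotype, with known differences added to some genes. How often it calls a difference of the members' size is not reported here. Any member could be named with its difference and SE. Lowest, median and highest values are given for the 12 members with the lowest p and the 4 with the highest. Pathway genes named are those with p under 0.05, at most 8, plus Ifnb1, Ifng, Ifnar1 and Ifnar2, with full values for Tlr3 and Ifnar1 only. A further gene is not reported here. Isg15, Oas1b, Mx2, Siglech, marker genes and Rag2 were described outside it after their values were seen. Single values were tested by two-sided exact permutation over 75582 relabelings. Promoters came from RefSeq, gene positions from GENCODE vM21. Alternatives were other tumors, constants, filters, scalings and covariates. Python 3.11.15 was used.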

Additional observations from a re-analysis of the deposited data

How the results depend on the processing

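Of the alternatives, 31 distinct ones could change a difference, and 19 of these left out 1 tumor. Of 1178 member differences under them, 1177 kept their direction, and the 1 that reversed was Zbp1, at -0.12 with the NK cell list as a covariate. With that covariate the median difference was 0.23 and the number of members higher at an unadjusted p under 0.05 was 2. Without S41, S56 and S60 that number was 10. These fits, and those with the macrophage list or the genes above the floor as a covariate, were chosen after seeing the data, and the cause of the shifts was not tested. Leaving out 1 tumor at a time gave 31 (without S56) to 38 such members and a median difference of 0.73 to 1.01, while the share of all genes higher at that threshold ran from 3.79% (without S56) to 15.9% (without S51). The number with an adjusted p under 0.05 was 0 throughout, and the lowest limma adjusted p was 0.0847. Exact permutation in place of limma gave 37 members at an unadjusted p under 0.05, against 6.89% of all genes, and 0 members and 0 genes after adjustment. With Xist as a covariate, since both sexes were used and the labels do not give them, 34 members were higher at an unadjusted p under 0.05, against 3.90% of all genes. The paper describes the hosts of the 2 genotypes as littermates, but the labels give neither the litter nor a replicate number shared between the genotypes. No paired analysis was therefore possible, and the fit treats tumors of shared litters as independent. Oas1b was listed at the floor in S56, and most interferon genes lay there in all tumors.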

Other observations

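The tumor S51 also had the highest level of all 19 tumors for 4 genes known to respond to interferon gamma, though not for Ciita, the activator of MHC class II genes, which was highest in S46 (3.54). For the 4 genes its values were 9.17 for Gbp2, a guanylate-binding protein, 8.72 for Cxcl9 and 9.003 for Cxcl10, chemokines that attract T and NK cells, and 7.82 for the transcription factor Irf1. The highest Rag2+/- values of these genes were 6.70, 6.43, 7.20 and 5.14. Gbp2 and Cxcl9 had close medians in the genotypes, 5.95 against 5.89 for Gbp2 and 4.38 against 4.75 for Cxcl9 (Rag2-/- first). Their limma p-values were 0.534 and 0.428. Cxcl10 was 0.92 higher in Rag2-/- tumors (SE 0.47, limma p = 0.0664) and Irf1 0.38 higher (SE 0.35, limma p = 0.295). Whether the genotype differences of these 4 genes depart from those of the members was not tested. These genes were named after their values were seen.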
